A study of Mus musculus with 30 samples.

Results

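The receptors for interleukin 6 (IL-6), IL-12, IL-23 and IL-27 are built from 6 subunits, which were followed as transcripts in 30 RNA-seq libraries of mouse helper T cells. The genes Il6ra, Il6st, Il12rb1, Il12rb2, Il23r and Il27ra were found by symbol among the 23420 genes of each table, and all 6 passed the filter on low counts. Naive CD4 T cells (CD44-, CD62L+, GFP-) came from C57BL/6 mice that carry GFP as a reporter of Foxp3 and Thy1.1 as one of IL-10, and were activated with 2.5 ug/ml of soluble anti-CD3 and irradiated feeder splenocytes without CD4 T cells, 6 per T cell. Th1 cultures received IL-12 (20 ng/ml), Th2 cultures IL-4 (20 ng/ml) and Tr1 cultures IL-27 (25 ng/ml). Non-pathogenic Th17 cultures, called Th17 here, received TGF-β1 (2 ng/ml) with IL-6 (25 ng/ml). Pathogenic Th17 cultures, called pTh17, received IL-1β (20 ng/ml), IL-6 (25 ng/ml) and IL-23 (20 ng/ml). After 72 h, TCRβ+ CD4+ cells without Foxp3-GFP were sorted by Thy1.1 into an IL-10 positive compartment and an IL-10 negative one, with 2000 cells lysed per library. Each of the 10 groups, named below by culture and by compartment as positive or negative, had 3 libraries.

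These receptors work as pairs of chains. IL-6 binds IL-6 receptor alpha (Il6ra) and signals through gp130 (Il6st), and IL-27 uses the same gp130 chain with its own alpha chain (Il27ra); both signal through STAT factors. IL-12 and IL-23 share the beta 1 chain (Il12rb1): with the beta 2 chain (Il12rb2) it binds IL-12 and signals mainly through STAT4, and with Il23r it binds IL-23 and signals mainly through STAT3. In helper T cells Il12rb2 is known as a mark of the Th1 program and Il23r of the Th17 program.

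Total expected counts ran from 4394704 to 11850597 per library. All 5 CD4 T cell markers (Cd4, Cd3e, Cd3g, Cd5, Thy1) had counts in every group, with a summed level of 1906 to 3675 CPM (expected counts scaled to library size by TMM). Mean Il10 was 0.474 to 66.2 CPM in the negative groups and 23.5 to 814.7 CPM in the positive groups. Tr1 positive replicate 18 stood apart from its replicates (a chi-square of 11.3 and 12.4 for each degree of freedom, with 3.36 for the remaining pair). Th1 negative replicate 4 also stood apart (6.21 and 8.62, with 3.46 for the remaining pair), as did Tr1 negative replicate 18 (6.04 and 9.04, with 3.12) and Th17 positive replicate 10 (6.37 and 7.76, with 3.25). Pairs in the other 6 groups ran from 2.85 to 6.02. Whether replicates came from separate cultures or animals is not in the labels, so p-values here reflect only how far these libraries spread, possibly for technical reasons. Each cytokine came with its own culture, so a cytokine and the rest of its culture cannot be told apart.

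Il12rb2 and Il23r are neighbours on the minus strand of chromosome 6, and their levels peaked in different cultures. On GRCm38.p6 Il12rb2 spans chr6:67285986-67376293 and Il23r chr6:67422932-67491855, with 46638 bases and 0 protein-coding genes between them. The 250 bases upstream of a start site of each, from RefSeq on GRCm38.p6, are shown because these adjacent genes had unlike patterns. Capitals mark a match to a STAT palindrome (TTCNNNGAA) in Il12rb2.
Il12rb2 (chr6:67376189-67376438, minus strand): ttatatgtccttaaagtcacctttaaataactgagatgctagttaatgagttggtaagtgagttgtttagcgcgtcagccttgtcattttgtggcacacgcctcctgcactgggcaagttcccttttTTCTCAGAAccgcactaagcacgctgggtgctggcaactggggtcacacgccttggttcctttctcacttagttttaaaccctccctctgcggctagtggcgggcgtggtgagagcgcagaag
Il23r (chr6:67491856-67492105, minus strand): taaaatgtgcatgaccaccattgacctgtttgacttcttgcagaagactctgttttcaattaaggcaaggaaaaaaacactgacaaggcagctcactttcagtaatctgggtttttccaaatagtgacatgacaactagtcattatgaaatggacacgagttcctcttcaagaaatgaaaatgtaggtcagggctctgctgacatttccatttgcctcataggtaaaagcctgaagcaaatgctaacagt
The Il12rb2 match lies 123 to 115 bases before the start site used for its window. That window begins at 67376189, inside the gene span that ends at 67376293, so part of it lies within the gene as given. The Il23r window lies wholly beyond the end of its gene, so the 2 windows are not alike. A STAT palindrome was found in 7.02% of 32851 promoter windows of this length, searched on both strands. The windows of Il23r, Il6ra and Il6st held none. A T-box half-site (TCACACC, in 3.333% of windows) and an AP-1 element (TGANTCA, in 6.749%) had no match in these 4 windows. Il12rb1 and Il27ra had no entry in the promoter table. A match describes letters and shows no binding.

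Il6ra lies on chromosome 3 (89869324 to 89913196, minus strand) and Il6st on chromosome 13 (112464070 to 112506860, plus strand) of GRCm38.p6. Il12rb1 (70808360 to 70823542, plus strand) and Il27ra (84030286 to 84042600, minus strand) are both on chromosome 8. The libraries carry no strand, so reads of overlapping genes may be shared. Il12rb2 overlaps Serbp1 by 3317 bases. Serbp1 was lowest in the Th1 positive group, with a mean of 224.96 CPM, where Il12rb2 was at 906.0. It was highest in the Th2 positive group, with a mean of 408.6 CPM, where Il12rb2 was at 92.9. The part of shared reads in the Il12rb2 levels was not tested. Il27ra overlaps Palm3 by 386 bases, and Palm3 had group means of 0.857 to 3.80 CPM. Il6ra overlaps the lncRNA Gm46811 and Il12rb2 the snoRNA LOC115490490, whose levels are not given here.

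The subunits differed in how widely their levels varied across the 10 groups. Il12rb2 ranged from 18.7 ± 3.94 CPM (SD, n = 3) in Th17 negative to 906.0 ± 19.4 in Th1 positive libraries, a ratio of means of 48.5. The ratio was 26.5 for Il6ra, 14.4 for Il12rb1, 12.9 for Il6st and 2.37 for Il27ra. Il23r was at 0 in 3 groups and reached 53.2 ± 5.42 CPM. In these bulk libraries, fewer cells with a transcript and less RNA per cell cannot be told apart.

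**Figure D1:**
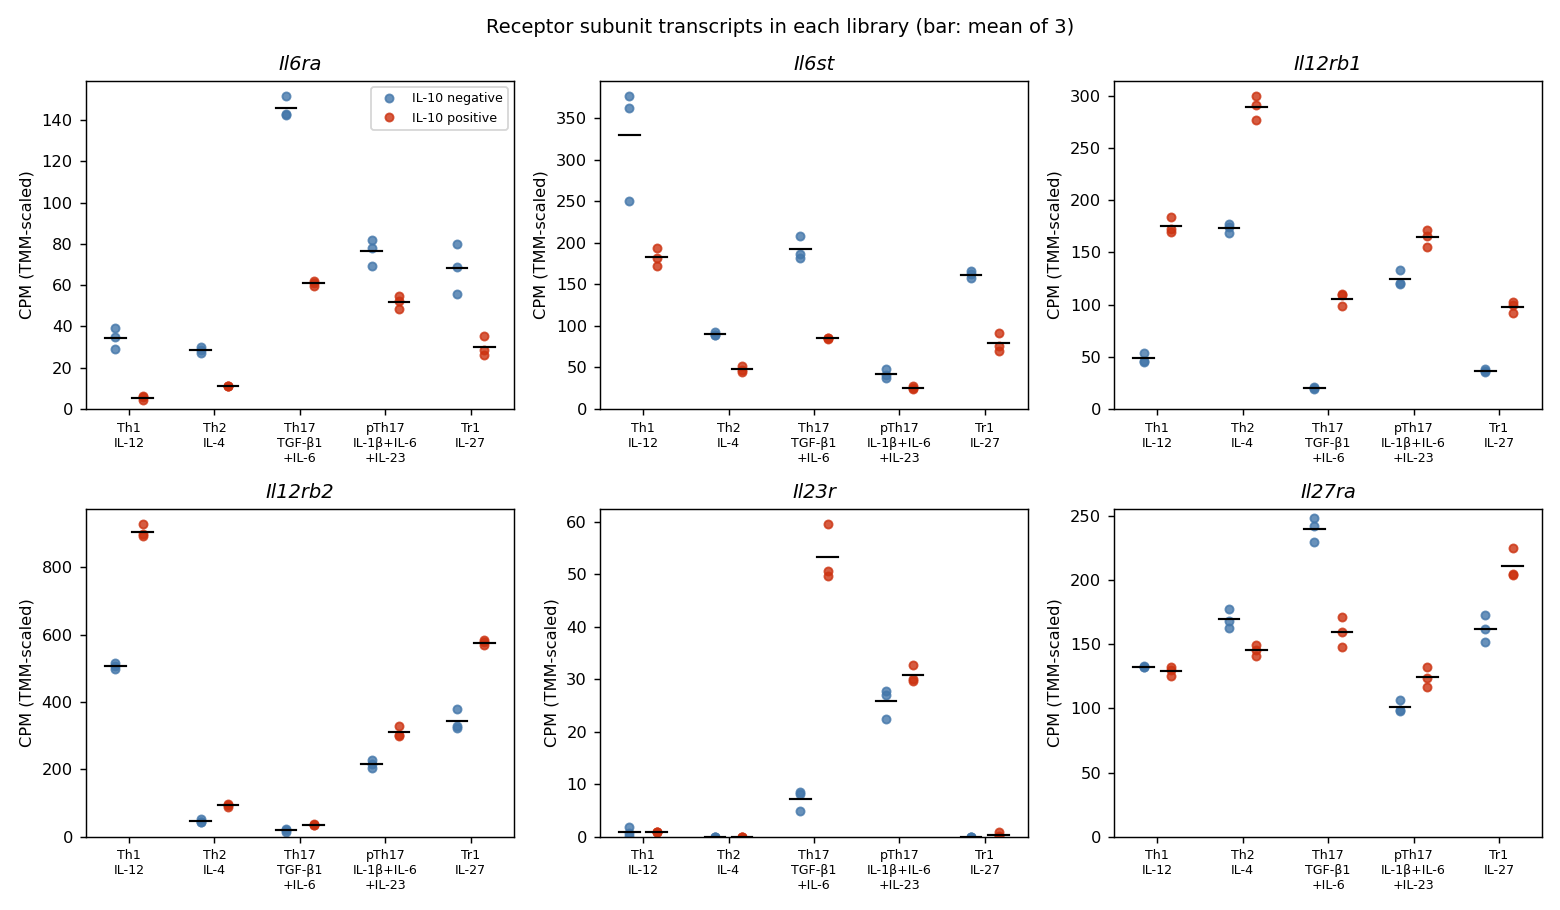
CPM (linear axis) of each receptor subunit in every library, by culture and compartment, with the mean of 3 libraries as a bar. Il12rb1 and Il12rb2 sit higher and Il6ra and Il6st lower on the IL-10 positive side of each culture, and Il23r is near 0 outside the Th17 and pTh17 cultures.

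Il6ra, the ligand-binding chain for IL-6, was highest in the negative compartment of Th17 cultures, which had IL-6 and TGF-β1. These libraries were at 143.2, 142.5 and 151.6 CPM. The next groups were pTh17 negative (76.4 ± 6.50), Tr1 negative (68.1 ± 12.1) and Th17 positive (60.9 ± 1.15), each overlapping the next, and then pTh17 positive (51.9 ± 3.09). Th1 negative (34.3 ± 5.05), Tr1 positive (29.99 ± 4.78) and Th2 negative (28.5 ± 1.58) also overlapped in turn. Th2 positive libraries were at 11.1, 11.2 and 11.3 CPM, and Th1 positive libraries were lowest, at 4.46, 5.66 and 6.39.

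Il6st encodes gp130, the signalling chain that IL-6 and IL-27 share. It was highest in Th1 negative libraries, at 249.9, 361.8 and 376.8 CPM, where replicate 4 was the low library. Th17 negative (191.8 ± 14.02) and Th1 positive (182.2 ± 10.4) overlapped and came next, followed by Tr1 negative (161.6 ± 4.38) and Th2 negative (90.3 ± 1.62). Th17 positive (84.8 ± 0.684) and Tr1 positive (79.01 ± 11.3) overlapped, as did Th2 positive (47.9 ± 3.25) and pTh17 negative (42.2 ± 5.14). The pTh17 positive libraries were lowest, at 28.1, 24.7 and 23.7 CPM. All 6 Th17 libraries lay above all 6 pTh17 libraries, although both cultures had IL-6.

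Il12rb1, the chain shared by the IL-12 and IL-23 receptors, was highest in a culture given neither cytokine. The Th2 positive libraries were at 300.3, 291.4 and 276.9 CPM. Th1 positive (175.1 ± 7.54), Th2 negative (173.5 ± 4.69) and pTh17 positive (164.4 ± 8.23) overlapped in turn, above pTh17 negative (124.6 ± 7.68). Th17 positive (105.7 ± 6.40) and Tr1 positive (98.1 ± 5.33) overlapped. Below them, without overlap, were Th1 negative (48.6 ± 4.80), Tr1 negative (36.6 ± 1.45) and Th17 negative, whose libraries were at 21.5, 19.2 and 19.6 CPM. The 3 lowest groups were all IL-10 negative.

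Il12rb2, the chain that completes the IL-12 receptor, was highest in the culture given IL-12. The Th1 positive libraries were at 897.5, 928.1 and 892.3 CPM and the Th1 negative libraries at 516.9, 496.5 and 507.5. Tr1 positive libraries (576.3 ± 8.01) lay between these groups, and Tr1 negative libraries (342.3 ± 30.8) overlapped pTh17 positive ones (309.5 ± 15.7). The pTh17 negative group was at 216.0 ± 10.9, Th2 positive at 92.9 ± 5.02 and Th2 negative at 45.9 ± 5.22 CPM. Th17 cultures were lowest in both compartments, at 35.9, 36.3 and 33.8 CPM in positive and 22.8, 14.9 and 18.4 in negative libraries.

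Il23r, the chain specific to IL-23, was found mainly in Th17 and pTh17 cultures. Th17 positive libraries were highest, at 50.7, 49.6 and 59.5 CPM, and Th17 negative libraries were at 8.52, 4.87 and 8.04. In pTh17 cultures, which had IL-23, the positive libraries were at 29.996, 29.6 and 32.6 CPM and the negative ones at 27.8, 22.4 and 27.1. These 4 groups did not overlap. Th1 libraries held 1 to 9 counts each, and the Tr1 positive group held 5 counts in all. No count was seen in the 3 Tr1 negative or the 6 Th2 libraries, where 3 counts over a group would be 0.174 CPM (Tr1 negative), 0.0926 (Th2 negative) and 0.0851 (Th2 positive). Against that floor Il23r was at least 626-fold higher in Th17 positive than in Th2 positive libraries, and at least 278-fold higher in pTh17 negative than in Th2 negative libraries. Floors cover counting error only, since amplified reads without molecular identifiers are not independent molecules.

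Il27ra, the alpha chain for IL-27, was well above 0 in every library. Th17 negative libraries were highest, at 248.4, 242.5 and 229.9 CPM, and Tr1 positive libraries, from the culture given IL-27, were next, at 204.7, 225.2 and 204.3. Th2 negative (169.7 ± 7.62), Tr1 negative (162.2 ± 10.4), Th17 positive (159.5 ± 11.5) and Th2 positive (145.5 ± 4.57) overlapped in turn. Th1 negative (132.7 ± 0.687), Th1 positive (129.2 ± 3.62) and pTh17 positive (124.3 ± 7.91) also overlapped, and pTh17 negative libraries were lowest (101.4 ± 4.68).

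Because each receptor needs both chains, its subunits were set side by side in the deposited TPM (values scaled for gene length and library), a comparison added after the data were seen. For the IL-12 receptor, Il12rb1 was the lower chain in every library of Th1, pTh17 and Tr1 cultures. Il12rb2 was the lower chain in every Th2 and every Th17 positive library. In Th1 negative libraries Il12rb2 had 290.8 ± 2.75 TPM and Il12rb1 28.7 ± 3.05, a ratio of 10.2. In Th2 positive libraries Il12rb1 had 175.9 ± 6.00 and Il12rb2 54.9 ± 2.47 TPM. Th17 negative libraries were low in both (Il12rb1 16.02 ± 0.319 and Il12rb2 14.4 ± 2.49 TPM) and varied in which was lower. Il23r was below Il12rb1 in all 30 libraries, and the means were closest in Th17 positive libraries (Il23r 44.6 ± 5.50 and Il12rb1 76.1 ± 3.77 TPM).

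For the IL-6 receptor, Il6ra was the lower chain in every library of Th1, Th2 and Tr1 cultures, which had no added IL-6. Il6st was the lower chain in every library of Th17 and pTh17 cultures, which had it. The gap was small in Th17 cultures, with a ratio of 1.26 in negative and 1.19 in positive libraries. In Tr1 negative libraries the ratio was 1.45 the other way. The gap was widest in Th1 positive libraries, with Il6ra at 2.72 ± 0.526 and Il6st at 54.3 ± 3.84 TPM, a ratio of 20.2. In pTh17 positive libraries Il6ra had 28.4 ± 2.12 and Il6st 8.40 ± 0.573 TPM, a ratio of 3.38. For the IL-27 receptor, Il6st was the lower chain in every library of 9 groups, and Th1 negative libraries varied. In Tr1 cultures Il27ra had 118.8 ± 8.10 TPM in negative and 146.7 ± 10.1 in positive libraries, and Il6st had 56.3 ± 2.58 and 26.1 ± 4.77.

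The lower chain of each receptor differed between compartments. For the IL-12 receptor its TPM was higher in positive libraries, without overlap, in all 5 cultures, for example Il12rb1 in Th1 at 28.7 ± 3.05 in negative and 101.0 ± 2.68 in positive libraries. For the IL-6 and IL-27 receptors it was lower in positive libraries, without overlap, in all 5 cultures. In Th17 and pTh17 cultures Il6st was the lower chain of both receptors, so there the same values count for both. In Th1 negative libraries the lower chain of the IL-27 receptor was Il27ra or Il6st. For the IL-23 receptor Il23r was the lower chain, and it was higher in positive libraries in Th17 (6.59 ± 1.68 to 44.6 ± 5.50 TPM) and pTh17 cultures (18.2 ± 1.45 to 22.9 ± 1.68 TPM). These are ranges of 3 libraries, with no test. In CPM the compartments did not overlap for 32.7% (pTh17) to 62.4% (Th17) of all tested genes. No such share was computed in TPM.

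**Figure D2:**
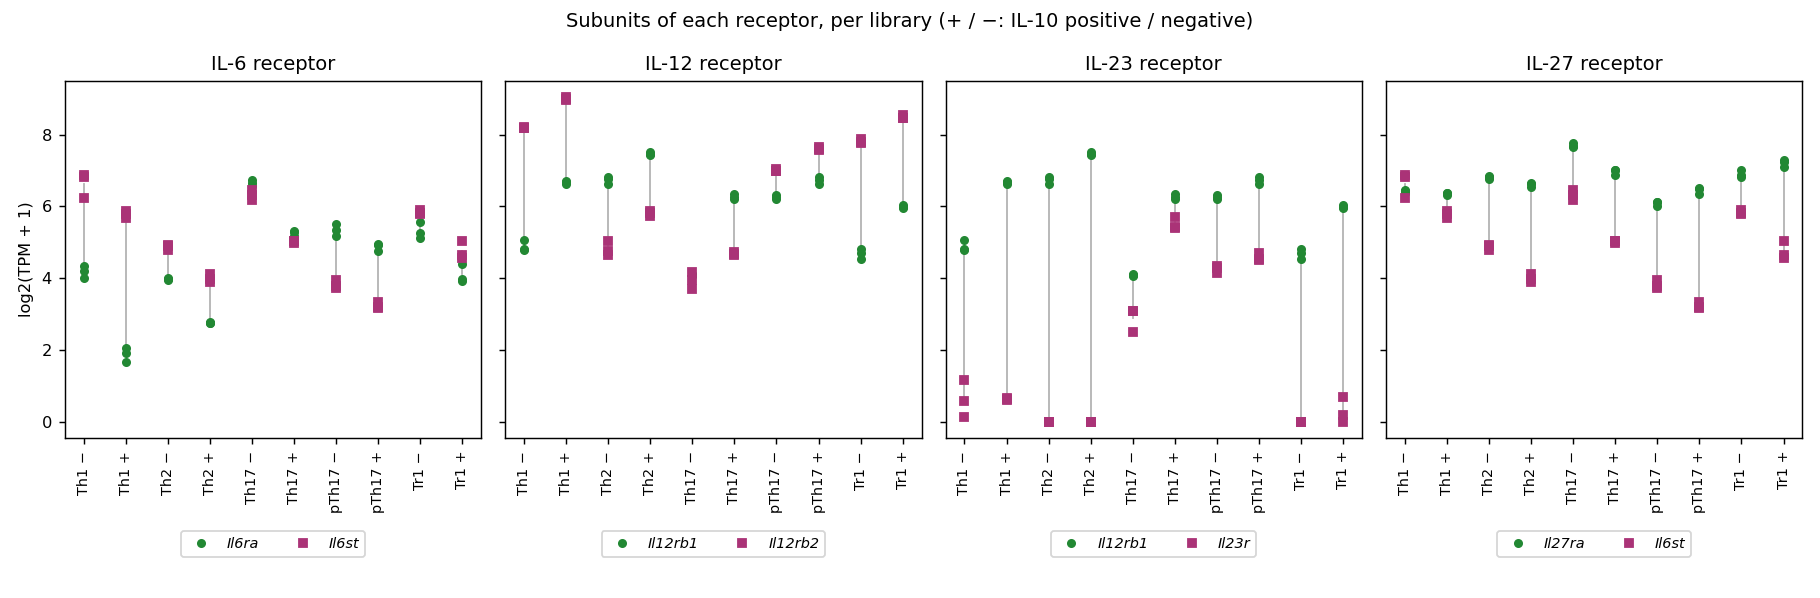
Deposited TPM of both subunits of each receptor on a log2(TPM + 1) axis, with 1 point per library, by culture and compartment. Il12rb1 lies below Il12rb2 in Th1, pTh17 and Tr1 libraries and above it in Th2 libraries. Il6st lies below Il6ra in Th17 (narrowly) and pTh17 libraries and above it in the other 3 cultures.

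The first comparison asked which subunits differ between the IL-10 positive and negative cells of a culture. Il12rb1 and Il12rb2 were higher, and Il6ra and Il6st lower, in the positive libraries of all 5 cultures (edgeR quasi-likelihood test, Benjamini-Hochberg adjustment over 12612 genes, called below an adjusted p of 0.05). Called members numbered 4 of 6 in Th1 (43.8% of all tested genes were called there), 5 of 5 in Th2 (21.8%), 6 of 6 in Th17 (58.2%), 5 of 6 in pTh17 (18.4%) and 5 of 5 in Tr1 (34.7%). Il23r has no fold in Th2 and Tr1 because a group was at 0. The CPM of the compartments did not overlap for 4 members in Th1 (51.4% of genes), 5 in Th2 (38.8%), 6 in Th17 (62.4%), 6 in pTh17 (32.7%) and 5 in Tr1 (41.3%). Of all tested genes, 1.78% were called higher in each of the 5 cultures and 1.39% lower in each.

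Il12rb1 had differences of very unequal size. In Th17 cultures its libraries were at 21.5, 19.2 and 19.6 CPM in the negative and 108.9, 110.0 and 98.4 in the positive compartment, a log2 fold change of 2.40 ± 0.08 (SE, adjusted p = 1.96e-24). In pTh17 cultures they were at 120.5, 119.9 and 133.5 and 155.6, 165.7 and 171.9 CPM, a difference of 0.40 ± 0.07 (adjusted p = 2.27e-05). Neither pair of groups overlapped, and pTh17 negative libraries already exceeded Th17 positive ones. The log2 difference was 1.84 ± 0.07 in Th1, 1.43 ± 0.08 in Tr1 and 0.74 ± 0.06 in Th2. Between Th17 and pTh17 the IL-10 difference of Il12rb1 itself differed by 2.00 ± 0.11 (adjusted p = 5.86e-18, a contrast added after the data were seen, in which 43.2% of genes were called).

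Il12rb2 differed by a narrower span, from 0.52 ± 0.07 in pTh17 to 1.02 ± 0.08 in Th2 (adjusted p = 7.47e-13 in Th2). Its Th2 libraries were at 43.2, 51.9 and 42.6 CPM in the negative and 96.9, 94.5 and 87.3 in the positive compartment. The log2 difference was 0.92 ± 0.10 in Th17, 0.84 ± 0.07 in Th1 and 0.75 ± 0.07 in Tr1, and the compartments did not overlap in any culture. In the mean of the 5 cultures (57.8% of genes called), Il12rb1 was higher by 1.36 ± 0.03 and Il12rb2 by 0.81 ± 0.04.

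Il6ra had its largest IL-10 difference in Th1 cultures. The negative libraries were at 39.2, 29.1 and 34.7 CPM and the positive ones at 4.46, 5.66 and 6.39, without overlap, and the log2 fold change was -2.62 ± 0.15 (adjusted p = 2.01e-17). It was -1.35 ± 0.12 in Th2, -1.26 ± 0.10 in Th17, -1.19 ± 0.12 in Tr1 and -0.56 ± 0.10 in pTh17. For its partner Il6st the difference ran from -0.72 ± 0.12 in pTh17 to -1.18 ± 0.10 in Th17. In Tr1 cultures Il6st was at 157.1, 161.8 and 165.9 CPM in negative and 91.5, 69.3 and 76.2 in positive libraries (-1.04 ± 0.11, adjusted p = 5.06e-10). The calls for Il6ra and Il6st in Th1, Th17 and Tr1 held without each of the 4 libraries that stood apart.

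Il27ra was called in opposite directions in different cultures. It was lower in positive Th17 libraries, at 248.4, 242.5 and 229.9 CPM in negative and 171.1, 148.0 and 159.4 in positive libraries (-0.59 ± 0.06, adjusted p = 3.20e-10). It was higher in positive Tr1 libraries, at 172.8, 152.0 and 161.8 and 204.7, 225.2 and 204.3 CPM (0.38 ± 0.07, adjusted p = 1.57e-05), and in pTh17 (0.29 ± 0.07). In Th1 the difference was -0.04 ± 0.07 (adjusted p = 0.677) and the libraries overlapped. In Th2 it was -0.22 ± 0.06 (adjusted p = 0.00849), a call that ended without Th2 positive replicate 8 (adjusted p = 0.0570) or Th2 negative replicate 9 (0.0678).

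Il23r was higher in positive Th17 libraries by 2.90 ± 0.20 (adjusted p = 3.07e-14), at 7.14 ± 1.99 CPM in negative and 53.2 ± 5.42 in positive libraries. In pTh17 cultures, with IL-23, the difference was 0.25 ± 0.17 (adjusted p = 0.353), although the 3 positive libraries lay above the 3 negative ones. The Th17 difference exceeded the pTh17 difference by 2.65 ± 0.26 (adjusted p = 6.93e-10). In Th1, where the libraries held 9 counts or fewer each, the difference was 0.01 ± 0.56.

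**Figure D3:**
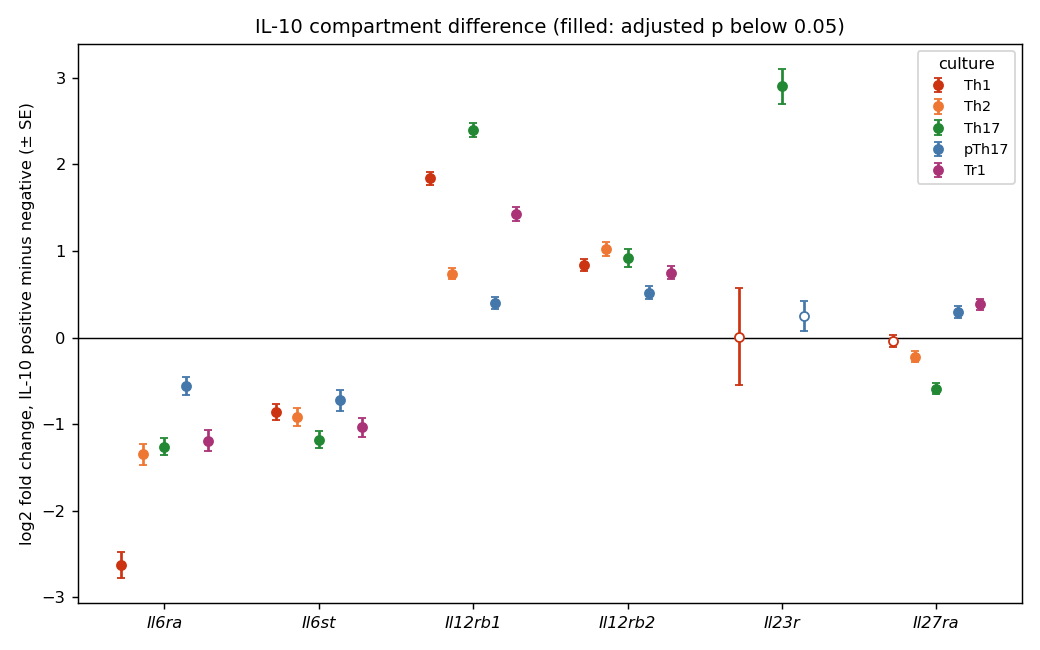
Log2 fold change of each subunit between IL-10 positive and negative libraries in each culture (points, with SE bars), filled where the adjusted p was below 0.05. Il12rb1 and Il12rb2 lie above 0 and Il6ra and Il6st below 0 in all 5 cultures, Il27ra lies on both sides, and Il23r is high in Th17 (2.90) and near 0 in pTh17 (0.25).

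A joint test asked whether the IL-10 difference was equal over the 5 cultures, and 60.7% of tested genes were called. It was called for 5 of 6 members: Il12rb1 (adjusted p = 1.50e-18), Il27ra (3.10e-11), Il6ra (2.99e-10), Il23r (8.69e-09) and Il12rb2 (0.00198). For Il6st the adjusted p was 0.0823, close to the threshold. It was called with the replicate number as a block (0.0447), with DESeq2 (0.0491), without a filter (0.00257) and in TPM with limma (0.0138). It was also called without Th1 negative replicate 4 (0.0304) or 6 (0.0322), pTh17 negative replicate 15 (0.0410) or Tr1 positive replicate 16 (0.0373). The Il23r test includes groups at 0.

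Other marker lists moved with the compartments, where 57.8% of all genes were called in the mean and 18.4% in pTh17. In the mean of the 5 cultures 10 of 10 cell cycle genes were higher and 9 of 10 naive T cell genes lower, with list medians of 1.96 and -1.35 against 0.00 over all genes. The summed cell cycle level was 48.2 to 56.8 CPM in Tr1 negative and 628.0 to 699.1 in Tr1 positive libraries. In pTh17 it was 1312 to 1399 and 1890.3 to 1996 CPM. The summed naive level was 13991 to 14378 CPM in Th17 negative and 4860.1 to 5257 in Th17 positive libraries. Of the B cell list, 7 of 8 tested genes were higher in pTh17 positive libraries, where its sum was 221.5 to 301.0 CPM against 113.6 to 124.4, with Blk at 0 in the negative group. In Th1 the summed NK list was 7.95 to 8.51 CPM in negative and 81.96 to 85.6 in positive libraries. Klre1 and Klra4 were at 0 in the Th1 negative group, and Ncr1 and Klra4 in the Th1 positive group. In Tr1 the summed NK list was 5.69 to 6.50 and 60.1 to 69.1 CPM, with Klre1 and Klra4 at 0 in both. The summed myeloid list was 17.2 to 24.1 CPM in Th1 negative and 69.05 to 78.4 in Th1 positive libraries. S100a9 was at 0 in both, and S100a8 was at 0 in the positive group only. In the mean IL-10 comparison 2 of 2 CD8 T cell genes were higher and 2 of 5 regulatory T cell genes lower. The part of these lists in the subunit differences was not tested.

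The second set of comparisons set a culture, as the mean of its compartments, against the mean of the others. These contrasts share libraries and are not independent, and no fold is given for Il23r, since Th2 and Tr1 groups were at 0. A difference from a mean need not hold against each culture in that mean. In Th1, the culture given IL-12, 4 of 5 members were called (60.0% of all genes were). Il12rb2 was higher by 2.52 ± 0.04 (adjusted p = 1.41e-37) and Il6st by 1.72 ± 0.05. Il6ra was lower (-1.76 ± 0.08), as was Il27ra (-0.28 ± 0.04). Il12rb1 differed by -0.07 ± 0.04 (adjusted p = 0.152), a mean of opposite signs: 0.25 ± 0.05 among positive libraries (adjusted p = 5.65e-05) and -0.40 ± 0.07 among negative ones (4.77e-05). In both compartments together it was called in TPM with limma (-0.25, 6.71e-06) and without Th1 negative replicate 6 (-0.11, 0.0335). In the single-compartment fits 58.9% and 44.5% of genes were called.

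In the cultures given IL-6, 5 of 5 members were called (61.3% of genes). Il6ra was higher in Th17 and pTh17 than in the other 3 cultures by 1.79 ± 0.05 (adjusted p = 7.19e-28), while its partner Il6st was lower (-0.92 ± 0.05). Il12rb2 (-1.73 ± 0.04) and Il12rb1 (-0.40 ± 0.03) were lower. The means of Il6st, Il12rb2 and Il12rb1 join unlike cultures. For Il6st, pTh17 was below all other cultures, but Th17 was above Th2 (Th2 minus Th17 -0.96) and Tr1 (0.18). Th17 was below all others for Il12rb1 and Il12rb2. Of the 3 cultures without IL-6, pTh17 exceeded only Th2 for Il12rb2 (Th2 minus pTh17 -1.99). For Il12rb1 it exceeded Th1 (Th1 minus pTh17 -0.63) and Tr1 (1.26). Il27ra differed by -0.07 ± 0.03 (adjusted p = 0.0290), opposite in TPM. That call was lost with median-of-ratios size factors (adjusted p = 0.145), DESeq2 (0.138), thinned counts (0.143) and no filter (0.659). It was also lost without any 1 of 10 libraries (0.0525 to 0.0829): Th1 positive replicate 6, Th2 negative 9, Th17 positive 11, Th17 negative 12, pTh17 negative 13 and 14, pTh17 positive 14, Tr1 negative 16 and Tr1 positive 17 and 18. Between pTh17 and Th17 themselves (63.6% of genes called), Il12rb2 was higher in pTh17 by 3.33 ± 0.06 and Il12rb1 by 1.64 ± 0.05. Il6st (-1.96 ± 0.08), Il27ra (-0.80 ± 0.05) and Il6ra (-0.58 ± 0.07) were lower in pTh17. For Il6ra the difference was -0.92 ± 0.10 among negative libraries and -0.21 ± 0.09 among positive ones, where it was not called (adjusted p = 0.0555).

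In pTh17, the culture given IL-23 with IL-6 and IL-1β, 5 of 5 members were called against the other 4 cultures (66.2% of genes). Il12rb1 was higher by 0.72 ± 0.04, Il12rb2 by 0.79 ± 0.04 and Il6ra by 0.98 ± 0.06, each a mean of opposite signs. Il12rb2 was lower in pTh17 than in Th1 (Th1 minus pTh17 1.39) and Tr1 (pTh17 minus Tr1 -0.78). Il12rb1 was lower than in Th2 (Th2 minus pTh17 0.65), and Il6ra was lower than in Th17 (pTh17 minus Th17 -0.58). Il6st (-1.91 ± 0.07) and Il27ra (-0.56 ± 0.04) were lower. For the IL-23 chain itself, Il23r, pTh17 exceeded Th17 by 0.53 ± 0.13 on average (adjusted p = 0.000795), a call lost in TPM with limma (0.21, adjusted p = 0.162). That average joins opposite differences, 1.87 ± 0.25 among negative libraries (adjusted p = 1.04e-06) and -0.77 ± 0.12 among positive libraries (7.90e-06), where 61.2% and 58.8% of genes were called. In this contrast 8 of 8 B cell genes were higher, with a list median of 2.41, and their part was not tested.

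In Tr1, the culture given IL-27, 5 of 5 members were called (72.2% of genes). Il27ra was higher by 0.34 ± 0.04 and Il6st, the other chain of the IL-27 receptor, by 0.32 ± 0.06. Against Tr1 itself, Il6st differed by 1.12 in Th1, 0.18 in Th17, -0.78 in Th2 and -1.78 in pTh17. The Il6st mean thus joins opposite signs. The Il27ra difference was 0.61 ± 0.05 among positive libraries and 0.12 ± 0.05 (adjusted p = 0.0539) among negative libraries, with 66.7% and 60.0% of genes called. Il12rb2 was higher by 1.76 ± 0.04 (adjusted p = 7.47e-32) without added IL-12, while Il12rb1 was lower (-0.85 ± 0.05). These means also join opposite signs. Th1 exceeded Tr1 for Il12rb2 (Th1 minus Tr1 0.61), and Th17 was below Tr1 for Il12rb1 (Th17 minus Tr1 -0.38). Il6ra was higher by 0.37 ± 0.07, again a mean of opposite signs. Against Tr1 it differed by 1.06 in Th17, 0.48 in pTh17, -1.33 in Th2 and -1.71 in Th1. In Tr1 against the mean of the other cultures 10 of 10 cell cycle genes were lower, with a list median of -2.89. Their part was not tested.

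Th2 cultures had IL-4, which binds none of the 6 subunits, and 4 of 5 members were called (78.6% of genes). Il12rb1 was higher by 1.53 ± 0.04 (adjusted p = 1.56e-31). Il12rb2 (-1.70 ± 0.05), Il6ra (-1.29 ± 0.07) and Il6st (-0.66 ± 0.06) were lower, and Il27ra differed by 0.05 ± 0.04 (adjusted p = 0.214, but called among negative libraries at 0.13 ± 0.05, 0.0275). Th2 was above pTh17 for Il6st (Th2 minus pTh17 1.00). It was above Th1 for Il6ra (Th1 minus Th2 -0.38, but 0.27 among negative libraries). Against the mean of the other cultures, the chains of the IL-12 receptor thus differed in opposite directions in Th2 and in Tr1. Against Th17 alone, both chains were higher in Th2 (Th2 minus Th17 2.28 for Il12rb1 and 1.35 for Il12rb2). Both were also higher in Tr1 than in Th17 (Th17 minus Tr1 -0.38 and -4.11), as means of both compartments.

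**Figure D4:**
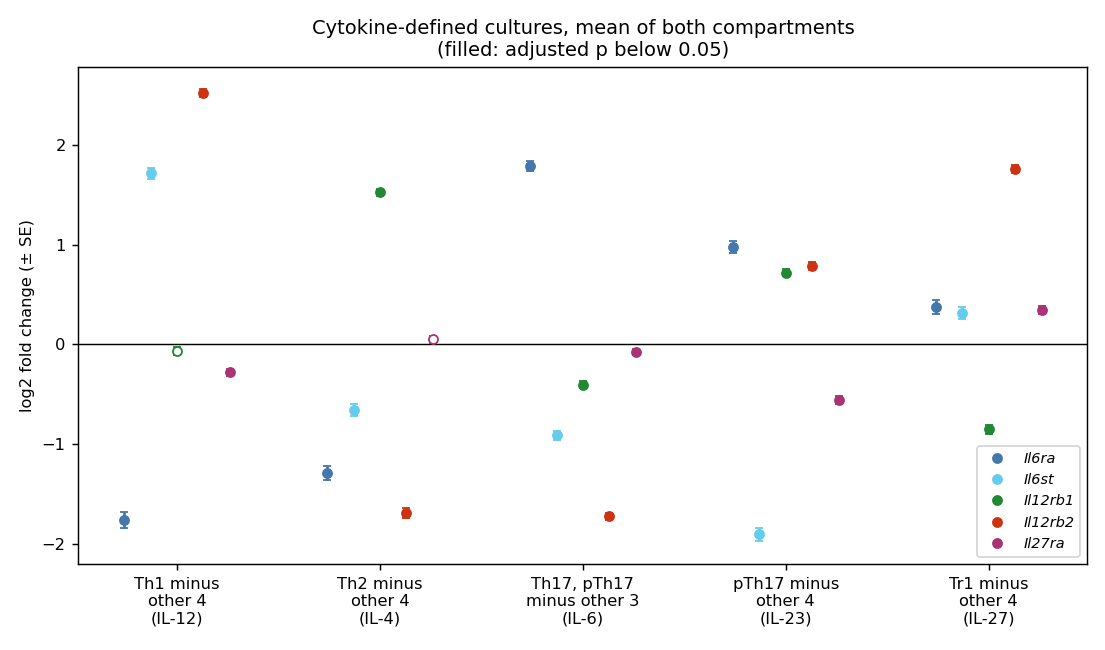
Log2 fold change (points, with SE bars) of 5 subunits between the cultures given a cytokine and the other cultures, as means of both compartments, filled where the adjusted p was below 0.05; Il23r is not drawn because groups were at 0. Il12rb2 is highest in Th1 (2.52) and Tr1 (1.76), Il6ra in the IL-6 cultures (1.79) and Il12rb1 in Th2 (1.53).

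Of the 10 pairs of cultures, all 10 were called for Il12rb1, Il12rb2, Il6ra and Il6st, and 9 for Il27ra. Il23r has no value for Th2 with Tr1 and was called in the other 9. Of these, the pairs with Th2 or Tr1 rest on groups at 0, so no fold is given for them. The call for Th1 with Th2 sets 1 to 9 counts a library against 0. The share of all genes called was 73.2% for Th1 with Th2, 61.9% for Th1 with Th17, 65.1% for Th1 with pTh17, 61.0% for Th1 with Tr1 and 71.6% for Th2 with Th17. It was 74.3% for Th2 with pTh17, 79.2% for Th2 with Tr1, 63.6% for pTh17 with Th17, 63.4% for Th17 with Tr1 and 72.8% for pTh17 with Tr1. The Il6ra call for Th1 with Th2 (-0.38) was lost in counts thinned to 1 depth (-0.23, adjusted p = 0.124), and that for pTh17 with Tr1 (0.48) among negative libraries (0.16, 0.201). Among positive libraries alone Il27ra was not called for Th1 with Th2 (-0.12, 0.0898) or with pTh17 (0.05, 0.487), nor Il23r for Th1 with Tr1 (adjusted p = 0.122). The pair not called for Il27ra was Th17 against Tr1 (0.08 ± 0.05, adjusted p = 0.128). There the compartments had opposite signs, with Il27ra in Th17 minus Tr1 at 0.54 ± 0.07 among negative and -0.41 ± 0.06 among positive libraries (39.6% and 66.3% of genes called). Leaving out Th17 positive replicate 11, Tr1 negative replicate 16 or Tr1 positive replicate 17 made this pair called (adjusted p = 0.0390, 0.0463 and 0.0465), as did fitting without a filter (0.17, 0.00631) or in TPM with limma (0.28, 8.95e-07). The same pair was called for Il6st at 0.18 ± 0.07 (adjusted p = 0.0352), and that call ended without any 1 of Th17 negative replicate 12 (0.0781), Tr1 negative replicate 16 (0.0521), Tr1 positive replicate 17 (0.1166) or Tr1 positive replicate 18 (0.0714). It was also lost with median-of-ratios size factors (0.0505), DESeq2 (0.0523) and thinned counts (0.113), and within positive (0.289) and negative libraries (0.0971).

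Downstream of the receptors, all 6 kinase and STAT genes on the list passed the filter. Counts of list genes stand against the share of all genes called in the same contrast, which was 72.2% for Tr1, 61.3% for the IL-6 cultures, 66.2% for pTh17, 60.0% for Th1 and 57.8% for the mean IL-10 comparison. In Tr1 4 of 6 were higher and 1 lower (list median 0.57, against 0.00 over all genes). Stat4, the factor used by IL-12, was higher in Th1 (1.18 ± 0.04) and in Tr1 (0.95 ± 0.04). Against the mean of the other cultures, all 6 genes were lower in the IL-6 cultures (median -0.69) and in pTh17 (median -0.48, against 0.01 over all genes). This did not hold between single cultures. In Th1 minus Th17, 4 were higher and 2 lower (61.9% of genes called). In pTh17 minus Th17, 3 were higher and 2 lower (63.6%). In the mean IL-10 comparison 5 of 6 were lower (median -0.18), Jak1 among them (-0.34 ± 0.03).

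Of the 7 feedback genes, 2 were higher and 3 lower in the mean IL-10 comparison (median 0.03). Socs3, an inhibitor that binds gp130, was lower (-0.60 ± 0.04), and Cish, an inhibitor of cytokine signalling through STAT5, was higher (1.27 ± 0.05). In Th17 cultures Socs3 was at 567.5 ± 17.96 CPM in negative and 131.1 ± 4.37 in positive libraries (-2.11 ± 0.08). Adam10 and Adam17, proteases that can release IL-6 receptor alpha from the cell surface, were both lower in the IL-6 cultures (-0.68 ± 0.04 and -0.39 ± 0.03). That mean joins unlike cultures. Both were lower in pTh17 than in Th17 (list median -0.63, with 63.6% of genes called). In Th17 minus Tr1, 1 was called higher and 0 lower (list median 0.07, with 63.4% of genes called). A link to the Il6ra level was not tested.

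Genes known as targets of these receptors were also counted. All 4 IL-12 targets were higher in Th1 (median 4.39, against 0.03 over all genes). Il18r1 was higher by 3.78 ± 0.05 and Il18rap by 5.01 ± 0.08, and Ifng had group means of 26.9 and 209.3 CPM in Th1 against 0 to 13.5 elsewhere. Of 7 IL-6 and IL-23 targets, 6 were higher in the IL-6 cultures (median 5.36, or 4.26 with groups at 0 set to the floor of 3 counts) and 7 in pTh17 (median 6.63 either way). In the IL-6 cultures Il21, a cytokine of Th17 cells, was higher by 4.22 ± 0.05. The 4 genes listed as IL-27 targets (Il10, Maf, Ahr, Prdm1) were all lower in Tr1 than in the mean of the other cultures (median -1.62), Maf by -0.98 ± 0.08 and Il10 by -2.35 ± 0.20. Il10 is also the gene whose reporter set the compartments.

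Of 11 ligand genes of the family, 4 passed the filter (Lif, Osm, Clcf1, Ebi3). All 4 were higher in pTh17 (median 1.53), with Osm by 1.61 ± 0.06 and Lif by 1.45 ± 0.06, and 3 of 4 were lower in Tr1. Ebi3, a chain of IL-27, was at 15.02 ± 1.16 CPM in pTh17 positive libraries and had means of 0 to 8.73 in the other groups. Of 8 other receptor chains, 3 passed the filter, and Il11ra1 (1.09 ± 0.16) and Lifr (1.11 ± 0.25), both partners of gp130, were higher in Tr1.

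Genes with the most similar pattern were ranked by Pearson's r over the 10 group means of log2 CPM, among 9283 genes. The means come from the same libraries, so r is a description. For Il23r they were Crispld2 (0.973), Il17f (0.972) and Il21 (0.970). For Il12rb2 they were Casp4 (0.970), Plac8 (0.938) and Hopx (0.937), and Plac8 was at 1.68 CPM in Th17 negative and 1883 in Th1 positive libraries. Il12rb1 was closest to Srgn (0.975), Cenpw (0.965) and Mrps36 (0.961). Il6ra was closest to Atxn2 (0.954), Plekha1 (0.944) and Ccdc137 (0.941). Il6st was closest to Max (0.946), Rsrc2 (0.933) and Add1 (0.925), and Il27ra to Mynn (0.942), Bmi1 (0.901) and Meis3 (0.893). Among the members r was 0.19 between Il12rb1 and Il12rb2, -0.04 between Il6ra and Il6st, and -0.26 between the neighbours Il12rb2 and Il23r.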

How the data were processed

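SMART-Seq2 libraries of sorted CD4 T cells were deposited as 1 RSEM table per library, aligned to mm10, per the submitters' processing notes; for the aligner, annotation and versions: not given in the sources used here. Per the file headers, the authors deposited expected counts, TPM and FPKM with transcript lengths for each gene; FPKM was not used. Expected counts (23.4% not whole) were rounded. Genes were tested with edgeR 4.0.16 (R 4.3.3; TMM scaling, filterByExpr, quasi-likelihood fit of 10 group means), with Benjamini-Hochberg adjustment over the 12612 genes left and a threshold of 0.05. Members and lists were chosen with earlier results of these data known. Named genes were the 6 members, the 3 genes most like each in pattern (mean of at least 5 CPM; predicted genes left unnamed), and up to 3 genes per pathway list with the smallest p. Alternatives were median-of-ratios size factors, DESeq2 1.42.0, no filter, a replicate block, counts thinned to 1 depth, deposited TPM as log2(TPM + 1) with limma 3.58.1, 1 culture or compartment alone, and each library left out. Fits were tested on simulated data. Gene positions and start-site windows are from GENCODE M21 and RefSeq on GRCm38.p6. The labels describe both compartments as Thy1.1+, so the compartment was taken from sample titles. Some genes of the lists are not reported here by name.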

Additional observations from a re-analysis of the deposited data

Results flagged for a closer look

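The joint test that the IL-10 difference was equal over the 5 cultures (edgeR quasi-likelihood test, adjusted over all tested genes) was called for 5 subunits, which are listed here because the difference itself differed between cultures. For Il12rb1 the adjusted p was 1.50e-18, with differences of 0.40 (pTh17) to 2.40 (Th17), higher in positive libraries in 5 of 5 cultures. For Il27ra it was 3.10e-11, with differences of -0.59 (Th17) to 0.38 (Tr1). For Il6ra it was 2.99e-10, with differences of -2.62 (Th1) to -0.56 (pTh17). For Il23r it was 8.69e-09, with groups at 0 in Th2 and Tr1, and for Il12rb2 it was 0.00198, with differences of 0.52 (pTh17) to 1.02 (Th2).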

How the results depend on the processing

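The counts of called members kept within 1.5 times of their values under every alternative run. Such counts, 4 to 6 in a comparison, cannot rise much, and they do not register most changes of single members. The Il27ra difference in Th1 (-0.04) was 0.0151 with median-of-ratios size factors, 0.0145 with DESeq2 and 0.0265 without a filter, and -0.0526 to 0.0109 with 1 library left out. That of Il23r in Th1 (0.01) was -0.49 in thinned counts and -0.49 to 0.88 with 1 library left out. The Il27ra difference in Th2 against the other cultures (0.05) was -0.0116 in thinned counts, -0.0556 in TPM and -0.11 in positive libraries alone, and that in the IL-6 cultures (-0.07) was 0.0854 in TPM and 0.0381 in negative libraries alone. In positive libraries alone Il12rb1 was at 0.25 in Th1 against the others, 0.0919 in Th1 minus pTh17 and 0.10 in Th17 minus Tr1, Il23r at -0.77 in pTh17 minus Th17, and Il27ra at -0.41 in Th17 minus Tr1, all opposite to the mean of both compartments. In negative libraries alone Il6ra in Th1 minus Th2 (0.27) and Il27ra in Th2 minus Tr1 (0.00644) were opposite to it. The cause was not tested. The replicate numbers did not pair the compartments (r of -0.045 to 0.054 over 15 pairs, own number best in 6), and the replicate block changed 1 call, Il6st in the joint test (adjusted p of 0.0447 against 0.0823). TPM with limma moved the share of called genes that were higher from 49.61% to 70.42% in the IL-6 contrast, from 54.39% to 31.02% in the IL-12 contrast, from 50.27% to 39.89% in the Th17 and from 54.90% to 70.85% in the pTh17 IL-10 comparison, and no filter moved it from 59.20% to 46.70% in Tr1. The median of all genes in TPM was 0.12 in the IL-6 contrast and -0.13 in the IL-12 contrast, so the TPM value of Il27ra in the IL-6 cultures lies below that median. Il23r rests on 0 to 9 counts a library in Th1 and Tr1, which limits its precision there. Il23r had 0 counts in Th2, and the Th2 groups had the highest mean depth. The part of depth in the Il23r counts was not tested.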
